A study of Rattus norvegicus with 4 samples.

Results

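The 39 genes described here belong to interferon signalling and the antiviral response, and were taken by symbol with case ignored from the 24005 rows of the read count table. They comprise 6 receptors and kinases, 8 transcription factors, 23 effectors, sensors of nucleic acid included, and 2 feedback inhibitors. All 39 were in the table and all passed the filter on low counts. Xaf1 is listed there as XAF1.

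Interferons are secreted proteins that cells make when they sense viral or misplaced nucleic acid. Type I interferons act through the receptor Ifnar1 and Ifnar2, and interferon gamma through Ifngr1 and Ifngr2. Both receptors signal through Janus kinases to STAT and IRF transcription factors, which switch on a broad set of antiviral effectors known as interferon-stimulated genes.

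The RNA came from rat cartilage. The animals were males of the outbred Sprague Dawley stock, 8 to 12 weeks old, with a body weight of 140 to 230 g. The osteoarthritis group has 2 libraries, in which joint disease was induced with monosodium iodoacetate, a glycolysis inhibitor, and both also carry the treatment label XGS, for the herbal preparation Xiaogu San. The control group has 2 libraries labelled healthy. With no library of untreated osteoarthritis, the effect of the preparation and that of the disease model cannot be told apart. The design text calls the normal animals mice, while each of the 4 libraries is labelled rat. The labels do not say that the libraries came from separate animals, so the spread that p-values are set against may be technical.

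The libraries held 24492412 and 25994449 counts in osteoarthritis and 28156020 and 28270779 counts in control. Hemoglobin genes took 0.222% and 0.622% of the counts in osteoarthritis and 12.8% and 13.5% in control, and leaving them out before scaling turned no member's sign. Defining chondrocyte genes such as Col2a1 and Acan were present in every library. Of 10 chondrocyte markers, 6 lay below both controls in both osteoarthritis libraries, against 26.5% of all genes tested. In the other 4 the groups overlapped, and Acan, 1 of these, was highest in osteoarthritis replicate 2. Marker genes of other tissues also differed between the libraries, as given below beside the results. In such bulk samples, fewer cells of a type and less RNA per cell cannot be told apart. Levels are CPM, read counts brought to one common library size, with library sizes scaled by the trimmed mean of M values (TMM), and values are given for replicate 1 and then replicate 2 of a group. Fold changes are those fitted by edgeR, osteoarthritis over control, with their standard error.

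Interferon-stimulated genes are known for a short promoter element, the interferon-stimulated response element (ISRE), bound by IRF factors and by complexes that hold Stat2 and Irf9. Windows with a match to this element are shown for some of the effectors and for the inhibitor Socs1. They are RefSeq sequences of the rat build GRCr8 on the strand of the gene, lie upstream of its start, and carry ISRE-type matches in capitals.
Rsad2, chr6:48788246-48788312, minus strand: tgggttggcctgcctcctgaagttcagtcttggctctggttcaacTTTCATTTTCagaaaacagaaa
Ifit3, chr1:241527237-241527325, plus strand: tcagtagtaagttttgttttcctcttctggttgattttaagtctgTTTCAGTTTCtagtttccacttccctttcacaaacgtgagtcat
Bst2, chr16:18255038-18255143, minus strand: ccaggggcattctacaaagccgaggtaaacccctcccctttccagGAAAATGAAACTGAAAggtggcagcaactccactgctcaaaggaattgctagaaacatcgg
Ifi27, chr6:128355098-128355282, plus strand: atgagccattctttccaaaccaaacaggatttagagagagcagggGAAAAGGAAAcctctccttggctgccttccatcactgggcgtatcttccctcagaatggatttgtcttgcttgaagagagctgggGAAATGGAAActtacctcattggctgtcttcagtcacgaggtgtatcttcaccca
Gbp2, chr2:234005651-234005726, plus strand: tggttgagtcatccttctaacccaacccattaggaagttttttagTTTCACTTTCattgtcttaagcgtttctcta
Socs1, chr10:5389422-5389527, plus strand: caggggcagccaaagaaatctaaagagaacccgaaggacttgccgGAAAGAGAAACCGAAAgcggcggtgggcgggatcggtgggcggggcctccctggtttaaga

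The ISRE-type motif searched was GAAA, any 2 bases and GAAA again or, on the other strand, TTTC, any 2 bases and TTTC, within 250 bases before and 50 bases after the start. RefSeq windows were matched for 27 of the 39 members. Of these, 13 held the motif, or 48.1%, while 3.92% of all 33469 windows did. It was found in 11 of 15 effectors and in 1 of 7 transcription factors, which was Irf7. Among receptors it was in 0 of 4 windows, and the 1 window of a feedback inhibitor held it. The effector windows without it were those of Mx1, Oasl, Trim25 and Parp9, and Ifit1 was among the members with no window. The adjoining matches of Bst2, Oas1a and Socs1 overlap by 4 letters. The gamma-activated site (GAS) type motif TTCNNNGAA, which reads the same on both strands and is the type of site bound by STAT dimers, was found in 7 of the 27 windows, or 25.9%, and in 8.87% of all windows. The 7 were Ifnar2, Irf1, Irf8, Irf9, Oas1a, Bst2 and Socs1. In Bst2 the GAS-type match overlaps the first ISRE-type match. A match describes these letters and shows no binding.

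**Figure D1:**
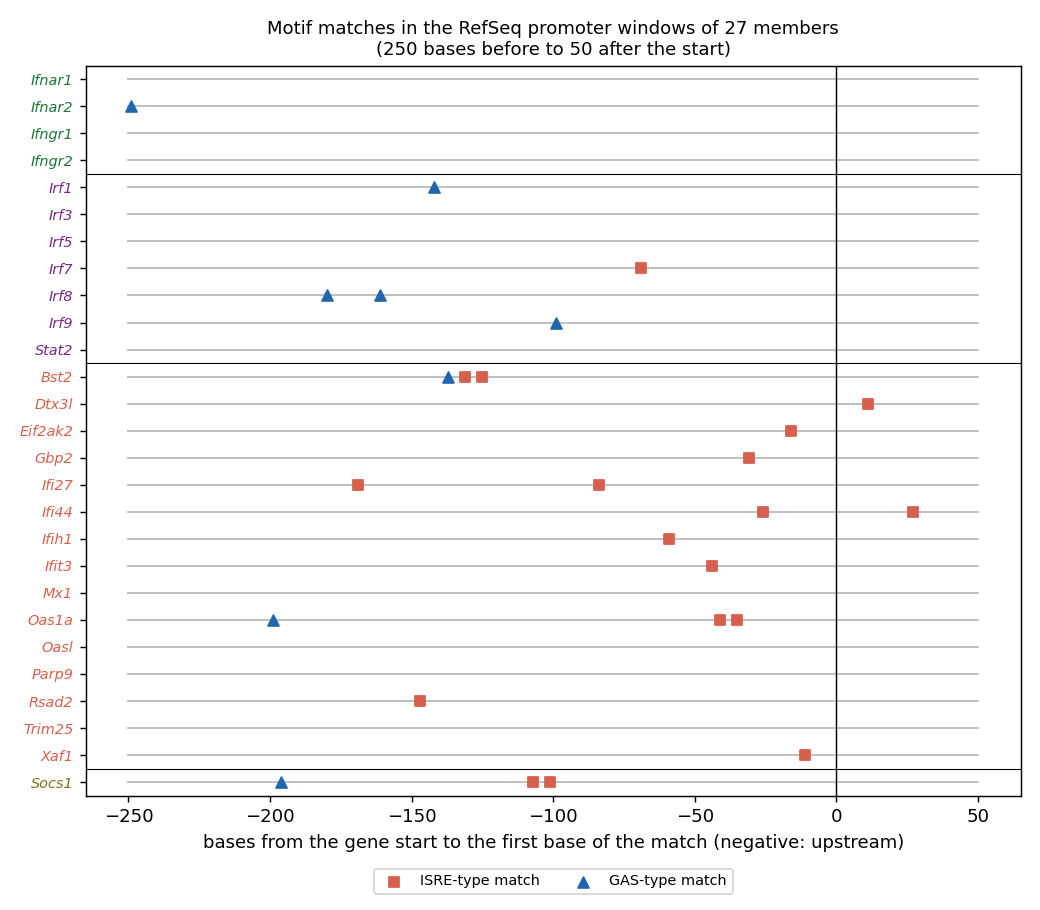
Positions of motif matches in the promoter windows of the 27 members with a RefSeq window. The x axis is the distance in bases from the gene start to the first base of a match, rows are genes grouped by role, squares are ISRE-type and triangles GAS-type matches. The effector rows hold 11 of the 13 windows with an ISRE-type match.

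Among the effectors, Rsad2 and Ifit1 stood apart: both were far lower in the osteoarthritis libraries than in either control. Rsad2 encodes viperin, an enzyme of the endoplasmic reticulum that makes a chain-terminating nucleotide. It had 7.67 and 25.7 CPM in osteoarthritis, against 242 and 223 CPM in control. The lowest control was 8.67 times the highest osteoarthritis library, and the fitted log2 fold change was -3.80 ± 0.67 (edgeR adjusted p = 0.0858). Ifit1 encodes a protein that binds viral RNA lacking the host's cap methylation. Its levels were 0.746 and 2.25 CPM in osteoarthritis, against 116 and 24.6 CPM in control. Here the lowest control was 11 times the highest osteoarthritis library, with a fitted log2 fold change of -5.57 ± 1.04 (edgeR adjusted p = 0.0881).

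Neither gene passed the quasi-likelihood test of edgeR, adjusted by Benjamini-Hochberg over the 15282 genes tested. It called 0 of the 39 members in either direction and 0% of all genes. An unadjusted p under 0.05 was reached by 2 members, Rsad2 and Ifit1, both lower, or 5.13%. Of all genes 23.3% reached it, 12.2% with a higher and 11.2% with a lower level. Other tests on the same counts called both genes lower: DESeq2 (adjusted p = 2.29e-07 for Rsad2 and 3.37e-08 for Ifit1, with 7.24% of all genes called higher and 8.26% lower) and edgeR's likelihood ratio test (adjusted p = 6.29e-05 and 2.05e-05, with 6.31% of all genes called higher and 6.40% lower). With no filter on low counts the quasi-likelihood test called both as well, with 3.35% of all genes called higher and 3.72% lower. Limma-voom called 0 members and 0% of all genes. Leaving out osteoarthritis replicate 1, the log2 fold change was -3.23 for Rsad2 and -4.99 for Ifit1. Without osteoarthritis replicate 2 the values were -4.92 and -6.55. Leaving out control replicate 1 gave -3.82 and -4.12, and leaving out control replicate 2 gave -3.86 and -6.29. Over all alternatives the adjusted p ranged from 2.29e-07 to 0.325 for Rsad2 and from 3.37e-08 to 0.325 for Ifit1.

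Cmpk2 and Ifit1bl, genes next to these loci, had lower values in osteoarthritis as well. Both are among the wider pathway genes picked for a small unadjusted p, and the full set of neighbours was not looked at. Cmpk2, a mitochondrial nucleotide kinase and the neighbour of Rsad2 in the RefSeq annotation of GRCr8, had 12.3 and 6.18 CPM in osteoarthritis and 39.7 and 41.7 CPM in control (log2 fold change -2.13 ± 0.46, edgeR adjusted p = 0.105). Ifit1bl, which overlaps Ifit1 in that annotation, had 4.58 and 9.42 CPM in osteoarthritis and 27.3 and 19.8 CPM in control (-1.75 ± 0.54, edgeR adjusted p = 0.156). As no source used here gives the strandedness or the counting method, reads of Ifit1 and Ifit1bl cannot be told apart with certainty. Ifit2 and Ifit3 are related RNA-binding proteins encoded beside each other. Ifit2 had 52.2 and 20 CPM in osteoarthritis and 35.3 and 16.3 CPM in control (0.48 ± 0.62, edgeR adjusted p = 0.690). Ifit3, whose window with its ISRE-type match is shown above, had 19.8 and 6.18 CPM in osteoarthritis and 27.5 and 4.76 CPM in control (-0.31 ± 0.97, edgeR adjusted p = 0.889, and 0.01 on log2(FPKM + 1)). In both genes the groups overlapped.

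Markers of neutrophils and their precursors were low in the same osteoarthritis libraries. All 10 tested genes of an 11-gene neutrophil and precursor list lay below both controls, against 26.5% of all genes. The untested gene, Ltf, had 17 and 0 counts in osteoarthritis and 0 in both controls. The list summed to 101 and 595 CPM in osteoarthritis, against 7271 and 11393 CPM in control. Its defining genes Mpo, Elane and S100a9 were above 0 in every library. Osteoarthritis replicate 2 was the higher of the osteoarthritis libraries for this sum, for Rsad2 and for Ifit1. In control the sum was higher in replicate 2, while Ifit1 was higher in replicate 1 and Rsad2 differed little. The neutrophil list was not alone in this. The 8 erythroid markers, all below both controls, summed to 35.8 and 420 CPM in osteoarthritis and 3562 and 4347 CPM in control. Chondrocyte and macrophage sums were also below both controls and higher in osteoarthritis replicate 2. The sums of the other cell type lists did not show both. The part of any of these cells in the difference was not tested.

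**Figure D2:**
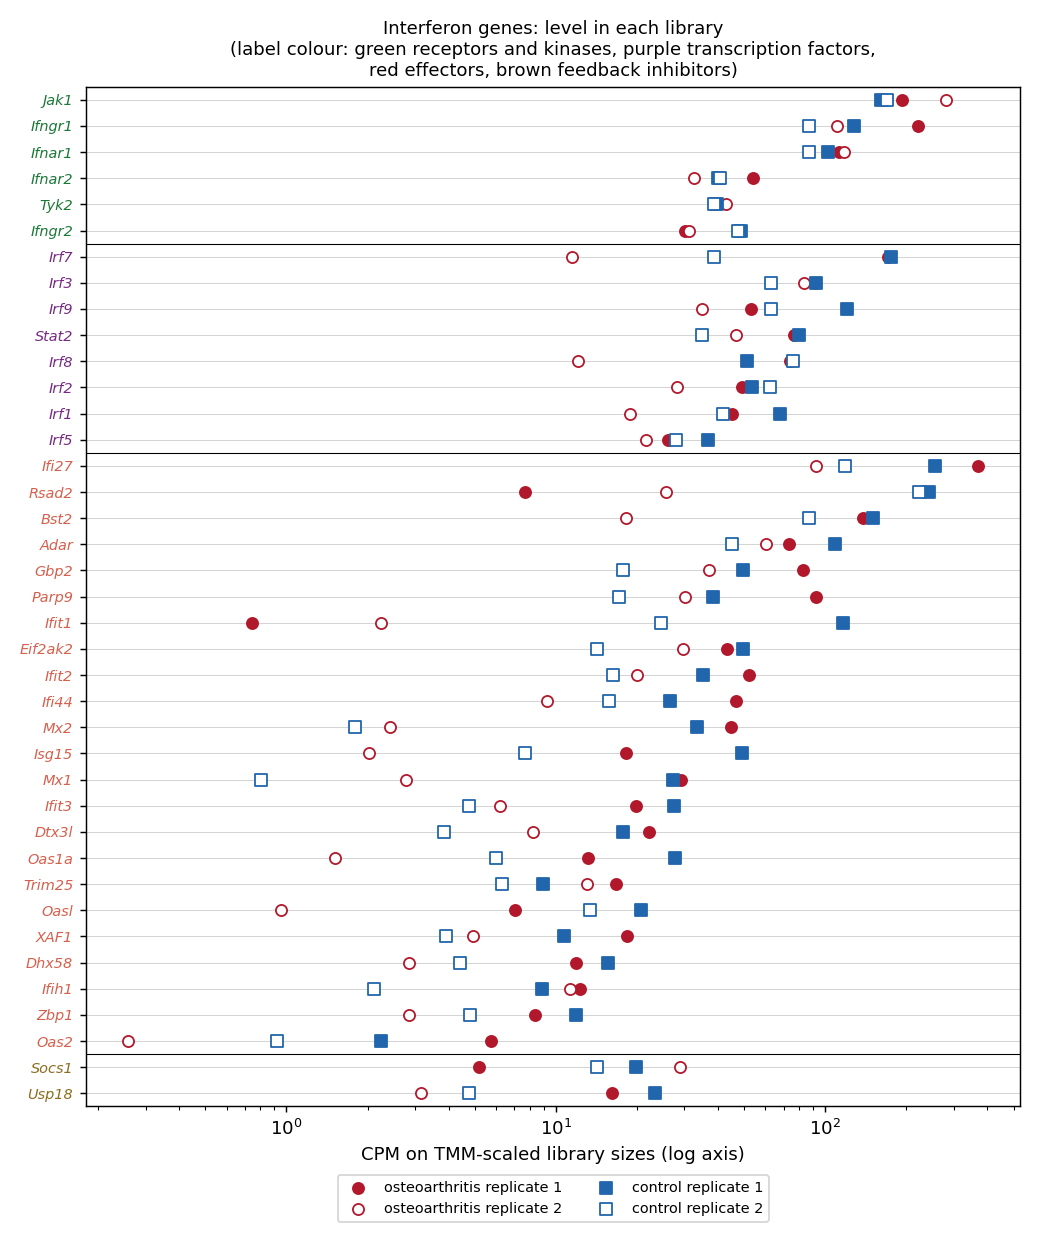
Level of each of the 39 members in each library, in CPM on a log axis, with genes in rows grouped by role. Circles are osteoarthritis and squares control, filled for replicate 1 and open for replicate 2. Both circles of Rsad2 and of Ifit1 lie far left of that gene's squares. Most other effectors are high in both filled and low in both open symbols.

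Most of the other 21 effectors differed widely between the libraries of a group. Mx1 and Mx2, dynamin-like GTPases that trap viral components, show this most plainly. Mx1 had 29.1 and 2.77 CPM in osteoarthritis and 27.2 and 0.806 CPM in control, a ratio of replicate 1 to replicate 2 of 10.5 and 33.7. Mx2 had 44.5 and 2.42 CPM in osteoarthritis and 33.4 and 1.80 CPM in control, ratios of 18.4 and 18.5. In both genes replicate 1 was the high library of each group, and the fitted log2 fold changes were 0.19 ± 1.64 and 0.42 ± 1.62 (edgeR adjusted p = 0.963 and 0.913).

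The same libraries were high for the ubiquitin-like protein and the enzymes that sense double-stranded RNA. Isg15, a ubiquitin-like protein attached to other proteins, had 18.2 and 2.03 CPM in osteoarthritis and 49.0 and 7.71 CPM in control (log2 fold change -1.48 ± 1.25, edgeR adjusted p = 0.528). Oas1a, an oligoadenylate synthetase whose product activates an RNA-degrading enzyme, had 13.2 and 1.51 CPM in osteoarthritis and 27.7 and 5.98 CPM in control (-1.19 ± 1.19, edgeR adjusted p = 0.596). For both genes each control library was above the osteoarthritis library of the same rank, yet the groups overlapped. Oas2, lowest of the members by mean FPKM over the 4 libraries, had 5.73 and 0.259 CPM in osteoarthritis and 2.25 and 0.921 CPM in control. Oasl, an oligoadenylate synthetase-like protein, had 7.05 and 0.951 CPM in osteoarthritis, below both controls at 20.7 and 13.4 CPM (-2.09 ± 0.99, edgeR adjusted p = 0.279). Rodents carry several near-identical Oas1 copies, and Mx1 and Mx2 are close paralogs, so reads of these genes may be split between copies.

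The 2 members with the highest mean FPKM over the 4 libraries were effectors of cell membranes. By FPKM, which divides by gene length, Ifi27, a small membrane protein, ranked first by that mean and in every library, with 555 and 103 FPKM in osteoarthritis and 322 and 136 FPKM in control. Bst2, or tetherin, which holds budding virus at the cell surface, ranked second by that mean, with 215 and 21.0 FPKM in osteoarthritis and 197 and 104 FPKM in control. In osteoarthritis replicate 2 it lay below Ifi27, Ifngr1, Irf3, Jak1 and Socs1. In CPM, Bst2 stood at 138 and 18.2 in osteoarthritis and 150 and 87.3 in control (log2 fold change -0.61 ± 0.92, edgeR adjusted p = 0.746), with osteoarthritis replicate 2 lowest and the other 3 libraries within a factor of 2. Its promoter holds the repeated element shown above.

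Gbp2, a guanylate-binding GTPase induced by interferon gamma, had 82.7 and 37.1 CPM in osteoarthritis and 49.4 and 17.7 CPM in control (log2 fold change 0.84 ± 0.64, edgeR adjusted p = 0.483). Parp9 and Dtx3l form a complex that modifies proteins with ubiquitin and ADP-ribose, and their genes overlap in GRCr8, so some reads may be shared. Parp9 had 92.6 and 30.1 CPM in osteoarthritis and 38.2 and 17.1 CPM in control (1.15 ± 0.67, edgeR adjusted p = 0.363). Dtx3l had 22.1 and 8.25 CPM in osteoarthritis and 17.7 and 3.84 CPM in control (0.50 ± 0.88, edgeR adjusted p = 0.789). In each of the 3 genes the groups overlapped, and replicate 1 was the high library of each group.

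Other effectors take part in the sensing of viral nucleic acid. Ifih1, the RNA helicase MDA5, had 12.3 and 11.3 CPM in osteoarthritis, above both controls at 8.91 and 2.11 CPM (log2 fold change 1.10 ± 0.80, edgeR adjusted p = 0.465). Trim25, a ubiquitin ligase of the RIG-I pathway, had 16.7 and 13.0 CPM in osteoarthritis, above both controls at 8.98 and 6.33 CPM (0.96 ± 0.49, edgeR adjusted p = 0.308). These were the only effectors with both osteoarthritis libraries above both controls. Dhx58, a regulator of the RNA helicases, had 11.9 and 2.85 CPM in osteoarthritis and 15.6 and 4.41 CPM in control. Zbp1, a sensor of Z-form nucleic acid that can start cell death, had 8.34 and 2.85 CPM in osteoarthritis and 11.9 and 4.79 CPM in control (-0.57 ± 0.83, edgeR adjusted p = 0.732). In both, replicate 1 was the high library of each group.

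Eif2ak2 and Adar, the kinase PKR and the enzyme that edits adenosine in double-stranded RNA, varied less than the Mx genes. Eif2ak2 had 43.2 and 29.6 CPM in osteoarthritis and 49.3 and 14.2 CPM in control, and Adar 73.5 and 60.5 CPM in osteoarthritis and 109 and 45.2 CPM in control. In both genes the osteoarthritis libraries lay between the controls. Ifi44 had 46.6 and 9.25 CPM in osteoarthritis and 26.6 and 15.8 CPM in control. XAF1, a protein that promotes cell death, had 18.3 and 4.93 CPM in osteoarthritis and 10.7 and 3.91 CPM in control (0.67 ± 0.86, edgeR adjusted p = 0.695). The groups overlapped in both.

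**Figure D3:**
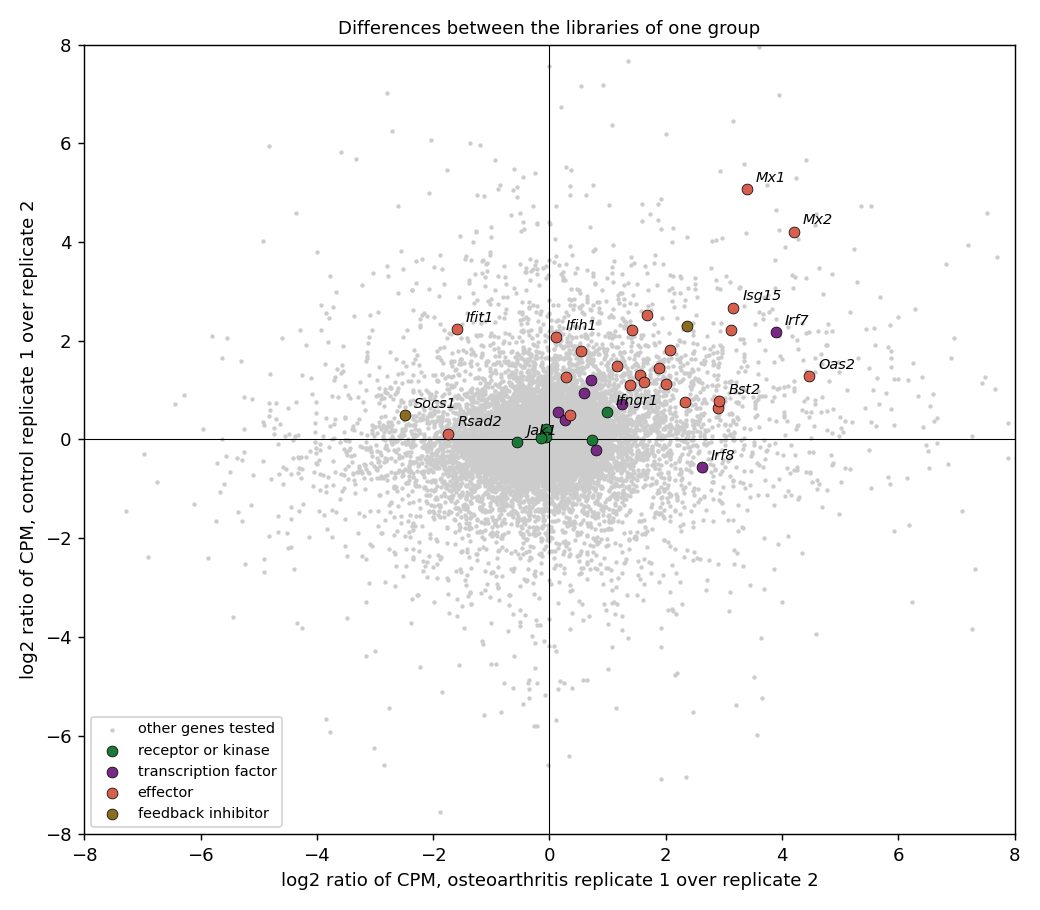
Log2 ratio of CPM between the libraries of a group, replicate 1 over replicate 2, for osteoarthritis on the x axis and control on the y axis. Coloured points are the 39 members by role and grey points the other tested genes among 13612 with a count in every library, of which 18 lie beyond the axes; the effectors other than Rsad2 and Ifit1 sit at the upper right, and the receptors and kinases lie near 0 on the y axis.

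Counted over the pathway, 21 of 39 members were more than 2-fold higher in osteoarthritis replicate 1 than in replicate 2, against 17.4% of all genes tested, and 3 were more than 2-fold lower, against 16.2%. In control, 21 of 39 were more than 2-fold higher in replicate 1 than in replicate 2, against 13.3% of all genes, and 0 were more than 2-fold lower, against 14.3%. At any size, replicate 1 was the higher library for 32 members in osteoarthritis, against 48.4% of all genes, and for 35 in control, against 47.7%. The 2-fold difference in both groups held for 16 members, or 41.0%, and for 5.17% of all genes. These 16 were Irf7, Isg15, Ifit2, Ifit3, Mx1, Mx2, Oas1a, Oas2, Ifi27, Dhx58, Gbp2, XAF1, Zbp1, Parp9, Dtx3l and Usp18. Replicate 1 was the higher library in both groups for 21 of the 23 effectors, against 25.3% of all genes. The exceptions were Rsad2 and Ifit1, which were higher in osteoarthritis replicate 2. These ratios compare single libraries and have no test.

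Between the groups, 28 of the 39 members overlapped, or 71.8%, while 43.5% of all genes did. For 4 members each osteoarthritis library exceeded each control, against 30% of all genes, and for 7 each was lower than each control, against 26.5% of all genes. The 4 were Ifnar1, Jak1, Ifih1 and Trim25, and the 7 were Ifngr2, Irf2, Irf5, Irf9, Ifit1, Oasl and Rsad2. With library size alone as the scale, 4 lay above and 4 below. The median log2 fold change was 0.06 over the members and 0.15 over all genes tested, and 18 of 39 members had a negative one, against 44.9% of all genes. By role the median was 0.19 for receptors and kinases, -0.50 for transcription factors and 0.20 for effectors.

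Marker lists of some other tissues followed the same libraries. Without Rsad2 and Ifit1, the effectors summed to 1125 and 356 CPM in osteoarthritis and 975 and 392 CPM in control. With them the sum was 1134 and 384 CPM in osteoarthritis and 1333 and 639 CPM in control. The 8 adipocyte markers, all above 0 in every library but for Lep at 0 in control replicate 1, summed to 7869 and 38.1 CPM in osteoarthritis and 1520 and 644 CPM in control. Endothelial markers, all 8 above 0 in every library, summed to 1383 and 799 CPM in osteoarthritis and 982 and 464 CPM in control. For both lists and for the effectors, replicate 1 was the higher library of each group. The 12 macrophage and monocyte markers summed to 1062 and 1510 CPM in osteoarthritis and 5771 and 8373 CPM in control, sums that follow the lysozyme gene Lyz2 at 382 and 1100 CPM in osteoarthritis and 4705 and 6879 CPM in control. Counted by gene, 10 of the 12 were higher in replicate 1 in osteoarthritis and 3 of the 12 in control. Plasmacytoid dendritic cells are known as strong interferon producers. Their 8 markers summed to 194 and 186 CPM in osteoarthritis and 202 and 288 CPM in control, made up mostly of different genes. Tcf4 had 168 and 131 CPM in osteoarthritis and 19.4 and 28.5 CPM in control, and Spib had 4.99 and 17.5 CPM in osteoarthritis and 136 and 199 CPM in control. Of the 6 tested markers, 5 had a negative log2 fold change. Ly6d was at 0 in every library and the defining gene Siglech had 205 and 3 counts in osteoarthritis and 0 and 8 counts in control. The part of any of these cell types in the levels of the members was not tested.

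**Figure D4:**
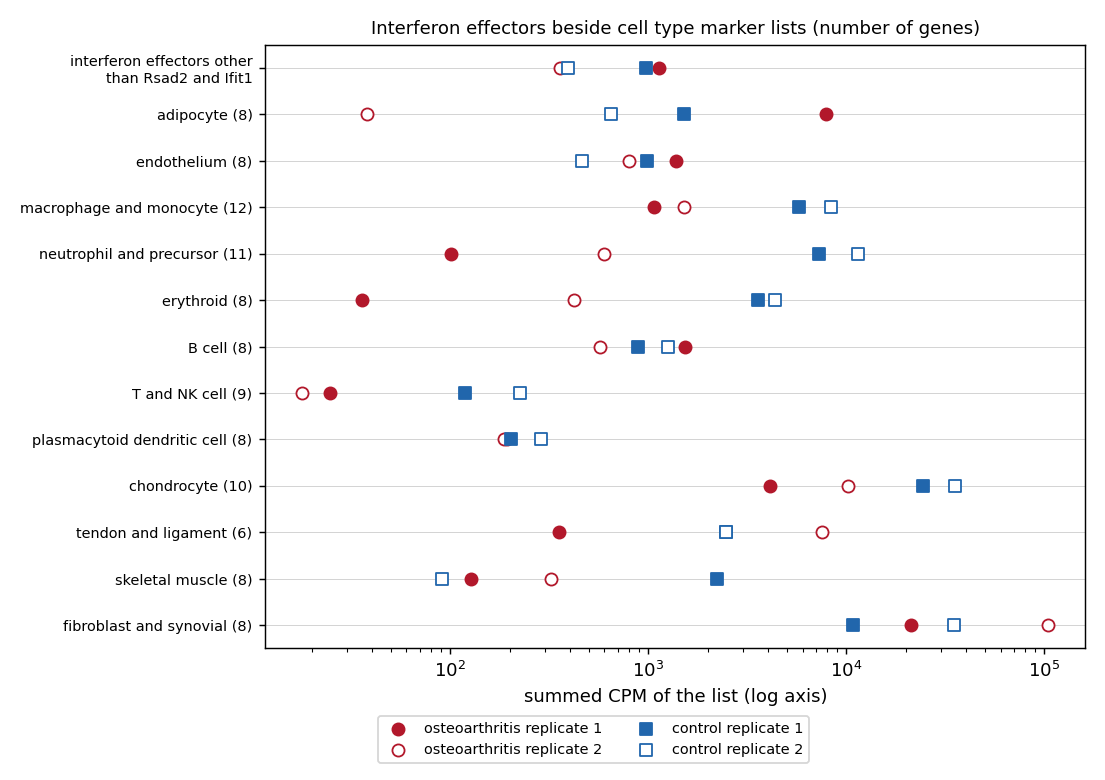
Summed CPM, on a log axis, of the 21 effectors other than Rsad2 and Ifit1 and of each cell type marker list, with the number of genes in brackets. Circles are osteoarthritis and squares control, filled for replicate 1 and open for replicate 2; the effectors, adipocyte and endothelial lists have the filled symbol above the open one in both groups.

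Receptors and kinases, which carry the signal from the cell surface, had the most even levels. Ifngr2, the signalling chain of the interferon gamma receptor, had 30.1 and 31.2 CPM in osteoarthritis and 48.8 and 47.6 CPM in control, with both osteoarthritis libraries below both controls (log2 fold change -0.65 ± 0.30, edgeR adjusted p = 0.261). Ifngr1, its ligand-binding chain, had 221 and 111 CPM in osteoarthritis and 128 and 87.0 CPM in control (0.62 ± 0.47, edgeR adjusted p = 0.476), with the groups overlapping. The chains of the type I receptor differed less. Ifnar1 had 112 and 117 CPM in osteoarthritis and 102 and 87.0 CPM in control (0.28 ± 0.31, edgeR adjusted p = 0.636), and Ifnar2 had 54.0 and 32.5 CPM in osteoarthritis and 40 and 40.6 CPM in control (0.10 ± 0.37, edgeR adjusted p = 0.905). Jak1, the kinase that serves both receptors, had 192 and 281 CPM in osteoarthritis and 161 and 169 CPM in control (0.52 ± 0.37, edgeR adjusted p = 0.453). Tyk2, which serves the type I receptor, had 38.9 and 42.8 CPM in osteoarthritis and 39.7 and 38.8 CPM in control (0.06 ± 0.30, edgeR adjusted p = 0.936). For 0 of these 6 genes did the libraries of a group differ more than 2-fold.

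Transcription factors lay between the receptors and the effectors in their spread. Irf7, the factor that amplifies type I interferon production and the one with an ISRE-type match, had 171 and 11.5 CPM in osteoarthritis and 175 and 38.7 CPM in control (log2 fold change -0.23 ± 1.27, edgeR adjusted p = 0.941). Its ratio of replicate 1 to replicate 2 was 14.8 in osteoarthritis and 4.53 in control, like the effectors. With library size alone as the scale its log2 fold change was 0.02. Irf8, a factor of macrophages, dendritic cells and B cells, had 73.9 and 12.1 CPM in osteoarthritis and 51.2 and 75.7 CPM in control (-0.56 ± 0.83, edgeR adjusted p = 0.738). Only osteoarthritis replicate 2 was low for Irf8, and in control the order of the replicates was opposite to that of Irf7.

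Irf9 and Stat2 act together at the ISRE. Irf9 had 53.1 and 35.0 CPM in osteoarthritis, below both controls at 120 and 62.7 CPM (log2 fold change -1.05 ± 0.45, edgeR adjusted p = 0.240). Stat2 had 76.4 and 46.6 CPM in osteoarthritis and 80.1 and 34.8 CPM in control (0.10 ± 0.51, edgeR adjusted p = 0.938), with the groups overlapping. Irf1, induced by interferon gamma, had 45 and 18.9 CPM in osteoarthritis and 68.2 and 41.6 CPM in control (-0.78 ± 0.53, edgeR adjusted p = 0.429). Irf2, which competes with Irf1, had 48.9 and 28.2 CPM in osteoarthritis, below both controls at 53.4 and 62.4 CPM (-0.59 ± 0.38, edgeR adjusted p = 0.415). Irf5, a factor of Toll-like receptor signalling, had 26.1 and 21.6 CPM in osteoarthritis, below both controls at 36.6 and 28.0 CPM (-0.44 ± 0.34, edgeR adjusted p = 0.496). Irf3, which is present before infection and activated by phosphorylation, had 91.5 and 83.3 CPM in osteoarthritis and 92.1 and 62.9 CPM in control (0.17 ± 0.34, edgeR adjusted p = 0.813).

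The feedback inhibitors did not run together. Usp18, which removes Isg15 from proteins and blocks the type I receptor, had 16.1 and 3.15 CPM in osteoarthritis and 23.4 and 4.76 CPM in control (log2 fold change -0.54 ± 1.05, edgeR adjusted p = 0.811), high in the libraries where the effectors were high. Socs1, an inhibitor of Janus kinases that many cytokines induce, had 5.19 and 29.0 CPM in osteoarthritis and 19.9 and 14.2 CPM in control (0.01 ± 0.82, edgeR adjusted p = 0.998). It was low in osteoarthritis replicate 1, where most effectors were high. Its promoter window holds the repeated ISRE-type match shown above, which shows no binding.

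**Figure D5:**
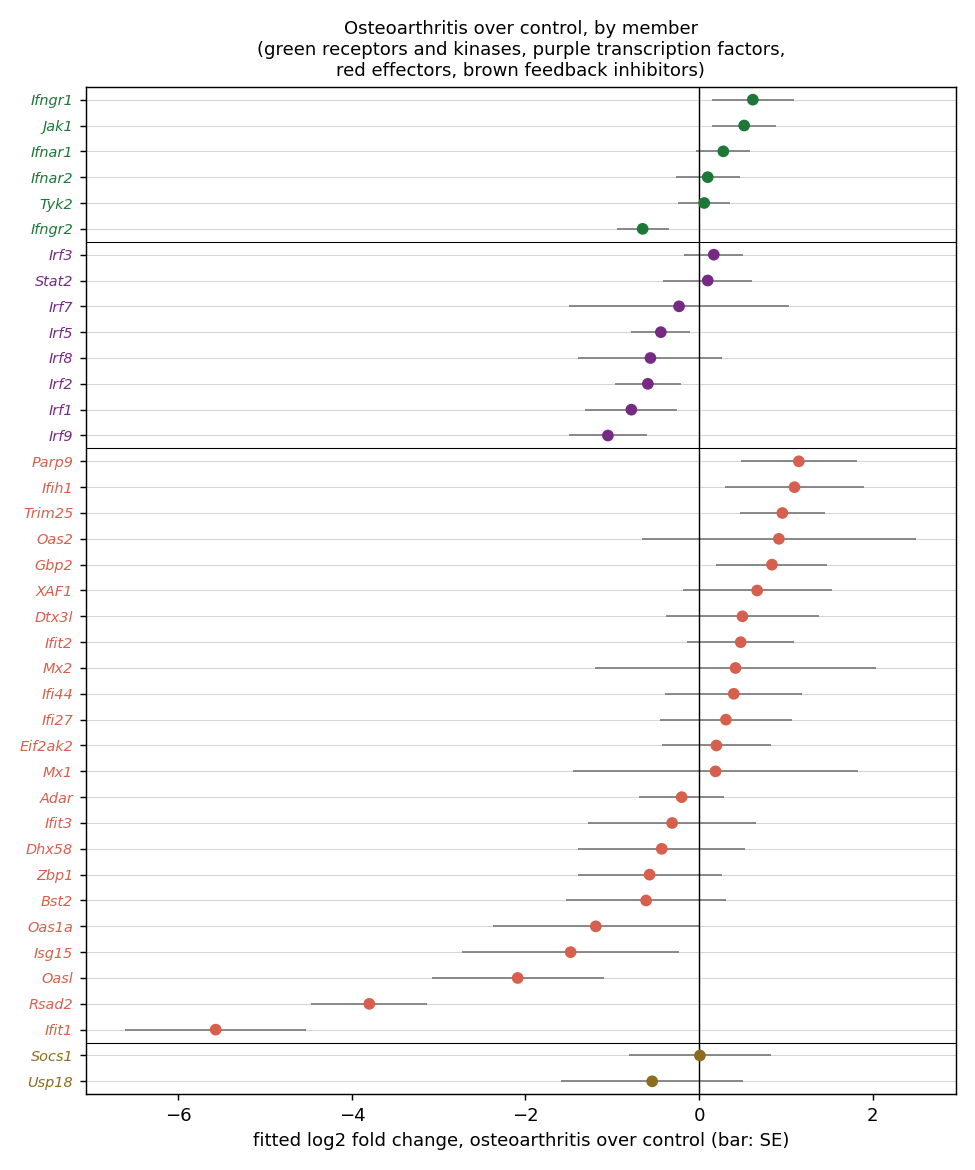
Fitted log2 fold change of each member, osteoarthritis over control, with its standard error as a bar; rows are genes grouped by role and n is 2 libraries in each group. Ifit1 at -5.57 and Rsad2 at -3.80 lie apart from the other members, whose values run from -2.09 to 1.15.

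The fold changes of most members hung on which libraries were used. With osteoarthritis replicate 1 left out, 7 members were called lower by the quasi-likelihood test and 0 higher, against 6.21% and 7% of all genes. Besides Rsad2 and Ifit1 these were Irf7 (log2 fold change -3.23, edgeR adjusted p = 0.0287), Irf8 (-2.46, 0.0122), Isg15 (-3.81, 0.0418), Oasl (-4.20, 0.0132) and Bst2 (-2.75, 0.00811). Over all alternatives the adjusted p reached 0.995 for Irf7, 0.930 for Irf8, 0.915 for Isg15, 0.527 for Oasl and 0.947 for Bst2. Without osteoarthritis replicate 2 it called Rsad2 and Ifit1 alone, against 4.76% of all genes called lower and 3.52% higher, and the log2 fold changes were 0.67 for Irf7, 0.22 for Irf8, -0.64 for Isg15, -1.27 for Oasl and 0.22 for Bst2. The median log2 fold change of the effectors was 0.20 with all libraries, -1.40 without osteoarthritis replicate 1 and 0.98 without osteoarthritis replicate 2. Without a control it was 1.09 (replicate 1 left out) and -0.51 (replicate 2 left out).

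Transcripts of the interferons themselves were at or near 0. Of 9 ligand genes in the table, Ifna1, Ifna2, Ifna4 and Ifna11 had 0 counts in every library, which at the floor of 3 counts allows up to 0.102 and 0.130 CPM in osteoarthritis and 0.106 and 0.115 CPM in control, for counting error only. All 9 had 0 counts in both controls. In osteoarthritis replicate 1, Ifna5 had 7 counts, Ifng 6, Ifnk 4 and Ifnb1 1, and in replicate 2 Ifnk had 10 and Ifne 11. Over the whole table, 19272 and 17725 genes had a count in the osteoarthritis libraries, against 14770 and 15739 in control. No ligand passed the filter on low counts.

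In the wider pathway, 22 genes of signalling and nucleic acid sensing and 53 further interferon-induced genes were tested, and 0 passed the adjusted threshold. An unadjusted p under 0.05 was reached by 2 signalling genes with higher and 3 with lower levels, and by 1 induced gene with a higher and 7 with lower levels. These are 5 of 22 and 8 of 53 genes, no larger a share than the 23.3% of all genes. Irf4, a lymphocyte factor, had 3.43 and 4.23 CPM in osteoarthritis and 27.2 and 27.9 CPM in control (log2 fold change -2.85 ± 0.43, edgeR adjusted p = 0.0835). Plscr1, a membrane phospholipid scramblase, had 9.16 and 5.36 CPM in osteoarthritis and 25.9 and 29.2 CPM in control (-1.92 ± 0.46, edgeR adjusted p = 0.115). Tmem173, the adaptor STING of DNA sensing, had 7.5 and 6.83 CPM in osteoarthritis and 20.2 and 19.8 CPM in control (-1.48 ± 0.43, edgeR adjusted p = 0.145).

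Ptpn6, a phosphatase of blood cells that restrains Janus kinases, had 39.2 and 23.9 CPM in osteoarthritis and 78.6 and 104 CPM in control (log2 fold change -1.54 ± 0.39, edgeR adjusted p = 0.123). Psmb9, an interferon-induced subunit of the immunoproteasome, had 31.5 and 9.59 CPM in osteoarthritis and 72.6 and 74.8 CPM in control (-1.84 ± 0.60, edgeR adjusted p = 0.168). The receptor chain Ifnlr1 of the type III interferons went the other way, with 13.4 and 29.5 CPM in osteoarthritis and 6.16 and 2.69 CPM in control (2.28 ± 0.68, edgeR adjusted p = 0.153). Together with Cmpk2 and Ifit1bl, these are the 8 wider pathway genes with the smallest unadjusted p, a choice that favours groups that stand apart. Over the whole lists the groups overlapped for 12 of 22 signalling genes and 30 of 53 induced genes, against 43.5% of all genes. Of the 53 induced genes, 34 were more than 2-fold higher in osteoarthritis replicate 1 than in replicate 2 and 17 in control replicate 1 than in replicate 2, with 15 in both. The shares of all genes were 17.4%, 13.3% and 5.17%.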

How the data were processed

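The authors deposited raw read counts per gene symbol, and FPKM of these genes. Per the submitters' processing notes, fastp and TopHat were used, without versions, and the build is given as hg38, a human build, although the symbols are rat. The counting tool, the annotation and the strandedness were not given in the sources used here. All 67506 FPKM values above 0 equalled the deposited count over a gene length and the column total within a relative 1e-06, so FPKM is no second measurement.

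Libraries were grouped by the label on disease state. Genes were kept by filterByExpr in edgeR 4.0.16 (R 4.3.3, minimum count 10), which left 15282, and scaled by TMM (factors 0.891 to 1.21). The quasi-likelihood F test was two-sided, adjusted by Benjamini-Hochberg and read at 0.05; the standard error is the fold change over the root of F. An exact permutation test of 2 against 2 cannot go below p = 0.333, so none was run. In fits without a library, a lone sample was taken to vary as the other group does. DESeq2 1.42.0, limma 3.58.1 (voom, and trend on log2(FPKM + 1) and log2(FPKM + 0.1)), other scalings and no filter were alternatives. The test was checked on simulated data.

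The members and lists were chosen with earlier results of these data known. Statistics are given for the 20 members with the smallest unadjusted p, all receptors, kinases and transcription factors, and up to 8 wider pathway genes; statistics of Ifit3, Mx1, Mx2, Dtx3l, Bst2, Usp18 and Socs1 were added after their values were seen. All 39 symbols are in the RefSeq table of GRCr8, used for names and neighbours. Promoter windows, 250 bases before and 50 after the start, are from RefSeq. Depth was 24492412 to 28270779 counts per library, and intervals and floors cover counting error only. Plots: matplotlib 3.10.9, Python 3.11.15.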

Additional observations from a re-analysis of the deposited data

How the results depend on the processing

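Of 13 alternatives, 9 kept all 4 libraries. No paired analysis was possible because the labels give no replicate numbers and the ones used here follow sample order. The count of all genes called, 0 higher and 0 lower, became 965 and 978 with edgeR's likelihood ratio test, 1107 and 1262 with DESeq2, and 677 and 751 with no filter on low counts, and in each of these 3 the members called lower became 2. Without 1 library the counts ranged from 0 to 1069 higher, 0 to 949 lower and 0 to 7 members lower. With library size alone as the scale, the median log2 fold change of receptors and kinases was 0.33, from 0.19, and 4 members lay below both controls. Without 1 library the medians ranged from 0.04 to 0.23 for receptors and kinases, -1.26 to -0.01 for transcription factors, -1.40 to 1.09 for effectors, -0.76 to 0.58 for feedback inhibitors and -1.05 to 0.50 for all members; the members apart from control ranged from 4 to 18 above and 8 to 20 below, where fewer samples alone widen the count. The cause of the other changes was not tested.

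Of the 39 members, 15 kept their sign in every fit without 1 library and 24 did not. Log2 fold changes then ranged from -0.36 to 0.42 for Ifnar2, -0.01 to 0.08 for Tyk2, -0.08 to 0.41 for Irf3, -3.23 to 1.19 for Irf7, -2.46 to 0.22 for Irf8, -0.38 to 0.76 for Stat2, -3.81 to 0.35 for Isg15, -0.40 to 1.09 for Ifit2, -1.40 to 1.40 for Ifit3, -2.34 to 4.26 for Mx1, -2.87 to 3.66 for Mx2, -3.49 to 0.26 for Oas1a, -2.62 to 1.85 for Oas2, -1.05 to 0.98 for Ifi27, -1.24 to 1.14 for Ifi44, -1.83 to 0.70 for Dhx58, -0.60 to 1.52 for Xaf1, -1.58 to 0.17 for Zbp1, -0.44 to 1.30 for Eif2ak2, -0.70 to 0.50 for Adar, -0.40 to 1.93 for Dtx3l, -2.75 to 0.22 for Bst2, -2.17 to 0.98 for Usp18 and -1.71 to 0.73 for Socs1. With all libraries 4 members changed sign: Irf7 to 0.02 by library size alone, Ifit3 to 0.01 and Adar to 0.02 on log2(FPKM + 1), with 0.05 and 0.03 at a pseudocount of 0.1, and Socs1 to -0.58 by limma-voom, -0.02 by DESeq2 and by its size factors, -0.05 by library size alone, and -0.30 and -0.34 on FPKM.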
